A study of Mus musculus with 16 samples.

Results

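The mRNAs of Polycomb group complexes were followed in MEFs, fibroblasts grown from mouse embryos, that carried, lacked or regained Arkadia, and that were left untreated or exposed to TGFβ. Arkadia, the product of Rnf111, is a RING-type ubiquitin ligase. The gene set comprised 31 named subunits of PRC2, PRC1 and the histone H2A deubiquitinase complex PR-DUB. Rows were taken by gene symbol, and 30 of the 31 were among the 12100 genes of the expression table. Suz12, a core subunit of PRC2, was not analysed here. The 30 genes were PRC2 core (5), PRC2 accessory (4), PRC1 RING (2), PCGF (6), CBX (4), PHC and SCM (4), partners of variant PRC1 (3) and PR-DUB (2).

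Poly(A)-selected, strand-specific RNA sequencing gave 16 libraries. WT cells were Ark+/+ MEFs and null cells were Ark-/- MEFs, each sampled untreated (0 h) and after 1, 4 and 16 h of TGFβ at 2.5 ng/ml (set A, 8 libraries). The other cells were Ark-/- MEFs carrying a retrovirus, either rvCAG-ArkWT with wild-type Arkadia (rvWT) or rvCAG-Arksim, whose Arkadia carries a mutated SUMO-interacting motif (sim). They were sampled at 0, 1 and 4 h beside null cells at 0 and 1 h (set B, 8 libraries). All cells were grown in medium with serum. Each line and time had 1 library per set, so the times of a line were its repeated measurements and p-values reflect only the scatter among the libraries, some of which may be technical. Each line is its own population of cells, so that line and Arkadia cannot be told apart, and without an empty-retrovirus line neither can infection and Arkadia. The series title concerns Arkadia and Polycomb bodies, the nuclear foci in which Polycomb proteins gather.

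PRC2 places methyl groups on lysine of histone H3 (the H3K27me3 mark) through its catalytic subunit Ezh2 or Ezh1. PRC1 is a ubiquitin ligase for histone H2A built on Rnf2 or Ring1 with a PCGF partner. In canonical PRC1 a CBX protein reads H3K27me3 and a PHC protein supports compaction and clustering into Polycomb bodies, whereas variant PRC1 carries Rybp or Yaf2 in place of CBX. PR-DUB removes the ubiquitin mark. Arkadia is known for promoting the degradation of inhibitors of TGFβ signalling.

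Promoter sequences from RefSeq (GRCm38.p6) were at hand for 26 of the 30 genes, with none for Pcgf1, Cbx2, Rybp and Yaf2. Each spans the 250 bases before the annotated start, 5′ to 3′ on the strand of the gene. Shown are Ezh2, the PRC2 gene that differed most clearly between WT and null, Phf19, which was lower in both retroviral lines, and Cbx6 and Cbx7, neighbours with 1 coding gene between them that both fell at 4 h of TGFβ. Capitals mark CCAAT or its reverse complement ATTGG in Ezh2 at chr6:47595031-47595280 (minus strand), the E2F-type motif TTTCCCGC as its reverse complement in Phf19 at chr2:34913977-34914226 (minus strand), and the short SMAD-type motif CAGAC in Cbx7 at chr15:79932647-79932896 (minus strand). Cbx6 at chr15:79834334-79834583 (minus strand) held none of the motifs searched.
Ezh2: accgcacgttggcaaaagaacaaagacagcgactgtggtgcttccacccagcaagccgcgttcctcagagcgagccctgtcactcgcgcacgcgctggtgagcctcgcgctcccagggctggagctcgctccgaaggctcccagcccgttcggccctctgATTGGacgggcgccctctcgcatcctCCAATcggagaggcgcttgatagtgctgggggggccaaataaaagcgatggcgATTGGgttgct
Phf19: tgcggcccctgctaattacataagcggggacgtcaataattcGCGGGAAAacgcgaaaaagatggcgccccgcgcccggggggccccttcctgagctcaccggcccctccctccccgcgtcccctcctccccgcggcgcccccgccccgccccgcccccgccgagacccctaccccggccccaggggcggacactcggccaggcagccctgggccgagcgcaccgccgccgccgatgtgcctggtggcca
Cbx6: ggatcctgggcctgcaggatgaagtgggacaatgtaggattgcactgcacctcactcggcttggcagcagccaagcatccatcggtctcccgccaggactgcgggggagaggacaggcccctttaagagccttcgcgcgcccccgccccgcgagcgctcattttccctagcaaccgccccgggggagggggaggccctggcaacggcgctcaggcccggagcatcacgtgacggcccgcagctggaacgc
Cbx7: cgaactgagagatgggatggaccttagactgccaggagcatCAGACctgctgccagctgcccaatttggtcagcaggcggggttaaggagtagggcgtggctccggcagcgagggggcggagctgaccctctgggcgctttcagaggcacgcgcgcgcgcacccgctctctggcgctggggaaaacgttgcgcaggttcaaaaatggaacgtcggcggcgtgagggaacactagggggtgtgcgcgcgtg

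Motifs were searched on both strands in all 32851 promoters of the table and in the 36 promoters of these 26 genes. CCAAT lay in 12 of the 36 promoters of 10 genes and in 33.8% of all promoters, and the Ezh2 window held it 3 times, starting 90, 64 and 11 bases before the gene start. The word TTTCCCGC lay in Phf19 alone among the subunits, starting 208 bases before the gene start, and in 0.895% of all promoters. The related word TTTGGCGC was in no subunit promoter and in 0.417% of all. CAGAC was found in 12 of the 36, against 42.2% of all. The longer palindrome GTCTAGAC was in none (0.167% of all), and TGACGTCA, the ATF/CREB palindrome, lay in Cbx8 alone (1.55% of all). Cbx7 also held CCAAT, which did not overlap its CAGAC. The median GC content was 66.2% in the subunit promoters and 52.4% in all promoters. A match of letters describes the window and no more, and the genes were measured against another build (mm9).

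Rnf111 followed the labels, with 14.5 to 15.1 FPKM in WT, 0.121 to 0.198 in null of set A, 0.526 and 0.435 in null of set B, 110.0, 103 and 126 in rvWT and 62.1, 56.0 and 61.1 in sim. FPKM scales fragments to the length of the transcript and to all mapped fragments, so levels of different genes can be set side by side. Read counts and depth are unknown, and the sum of FPKM per library was 397019 to 481970. Of 13 fibroblast markers 11 were in the table (Pdgfra and Dcn were not), and they summed to 2713 to 3141 FPKM in WT, 6190 to 6393 in null of set A, and 6608 to 9215 in set B. Of 6 epithelial markers 3 were in the table, without the defining Epcam, Cdh1 and Cldn4, and these went different ways. Krt19 read 267 to 519 FPKM in WT and at most 4.91 elsewhere, whereas Krt8 read 0.586 to 1.17 in WT and 2.64 to 12.7 in null of set A, and Krt18 0.431 to 1.08 and 1.21 to 1.91. Summed, the 3 came to 268.8 to 521 FPKM in WT and 3.44 to 15.4 elsewhere. WT therefore stood apart from the other lines in the sum of the fibroblast markers and in Krt19. That sum leaned on S100a4, at 65.9 to 87.2 FPKM in WT and 1813 to 2954 in null of set A. Of the 11 fibroblast markers 9 were lower in WT than in null, where 30.1% of all genes were lower (limma-trend, adjusted p below 0.05). Fn1 alone was higher, at 809 to 889 FPKM in WT and 347 to 541 in null of set A. Markers of endothelial, haematopoietic, muscle and neural cells summed to at most 84.8 FPKM, the highest being neural markers in WT. Of the 30 subunits, 10 were listed as a named transcript variant (Ezh2, Jarid2, Kdm2b, Mtf2, Pcgf2, Phc1, Phc2, Phc3, Scmh1 and Yaf2), whose value can be that of 1 isoform. How reads shared by near-identical genes such as Rbbp4 and Rbbp7 were assigned is not given.

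The subunits spanned a wide range of levels that was largely kept in every line. Rbbp7 and Rbbp4, histone-binding proteins that also serve other chromatin complexes, had the highest medians and spanned 98.9 to 128 and 57.4 to 74.2 FPKM over the 16 libraries. Jarid2, a PRC2 recruitment factor, and Phf19, a Tudor-domain PRC2 partner, had the lowest medians, 1.91 and 1.97 FPKM. In most families the same gene led in every library. Ezh2 made up 80.7% to 91.2% of the summed FPKM of Ezh1 and Ezh2, and Rbbp7 led Rbbp4, Rnf2 led Ring1, Phf1 led Mtf2 and Phf19, Phc2 led Phc1 and Phc3, and Cbx6 led Cbx2, Cbx7 and Cbx8 in 16 of 16 libraries. Among the 6 PCGF genes Pcgf5 led in 11 libraries and Bmi1 or Pcgf3 in the rest. Yaf2 was above Rybp in 10 libraries and below it in 6, namely the 3 rvWT and 3 sim libraries.

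Of the genes not followed library by library below, Eed spanned 19.7 to 32.6 FPKM, Bap1 13.5 to 24.8, Pcgf6 7.08 to 14.0, Pcgf1 4.39 to 8.29 and Phf1 4.30 to 7.07. Mtf2 spanned 1.84 to 4.87, Phc3 0.648 to 5.21 and Jarid2 0.0989 to 2.95. Null cells of the 2 sets, though the same line, also differed in level. The median absolute difference of set B from set A at 0 and 1 h was 0.27 on the log2 scale over the subunits and 0.21 over 11045 genes, and the largest among the subunits was 0.70 for Bmi1, which was lower in set B. Levels are therefore compared within a set. Between the 2 samplings of null cells, 19 of 30 subunits had values that did not overlap. For WT against null in set A the number was 17. The median absolute difference was 0.41 there, above the 0.27 between samplings, but only 0.17 for rvWT and 0.13 for sim against null. Lack of overlap by itself therefore does not tie a difference between lines to Arkadia.

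**Figure D1:**
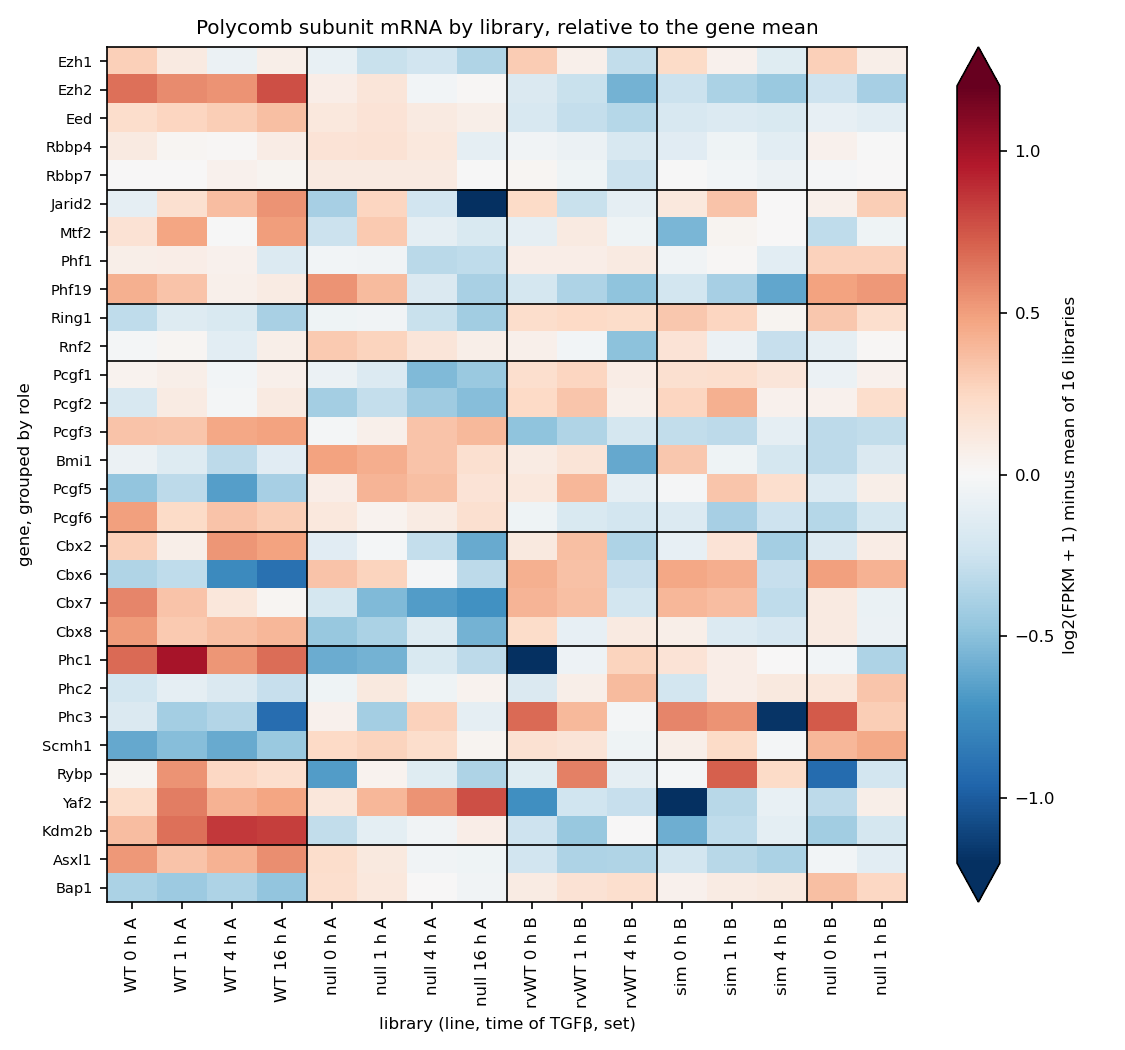
Each row is a subunit and each column 1 of the 16 libraries, grouped by line and set, and colour gives log2(FPKM + 1) minus the mean of the gene over the 16 libraries. Ezh2, Kdm2b, Phc1 and Cbx8 are red in WT and Cbx6, Scmh1 and Bap1 are blue there, Rybp shifts towards red from 0 to 1 h in each of the 5 series, and Jarid2 in null at 16 h is the lowest cell of its row.

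In WT against null cells of set A, the PRC2 methyltransferase Ezh2 was 1.50-fold higher in WT, and the canonical PRC1 subunits Phc1, Cbx7, Cbx8 and Cbx2 were 2.20-, 1.74-, 1.72- and 1.52-fold higher on the FPKM + 1 scale. Cbx6, the most abundant CBX mRNA, went the other way, to 0.636 of the null level, as did Scmh1, Pcgf5 and Bmi1. Of the 30 subunits tested, 15 were higher in WT and 7 lower at an adjusted p below 0.05 (limma-trend on log2(FPKM + 1), time as a block, Benjamini-Hochberg over 10976 genes). Across all genes tested 67.5% passed, 37.4% higher and 30.1% lower, so the share of subunits that passed was near that of genes at large. The median difference of the subunits was 0.20 on the log2 scale, beside 0.07 over all genes. With median-ratio scaling the split was 11 higher and 8 lower. In bulk RNA, fewer cells with a transcript and less of it per cell cannot be told apart.

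In the PRC2 core, 3 of 5 genes were higher in WT and none passed as lower. Ezh2 read 49.3, 46.0, 45.2 and 53.1 FPKM in WT and 32.5, 34.0, 29.9 and 31.0 in null at 0, 1, 4 and 16 h, the order used for all values of set A. The WT values all lay above the null values, and the difference was 0.59 ± 0.064 (log2, SE, adjusted p = 0.000782). Its paralog Ezh1, which has weaker methyltransferase activity, read 6.12, 5.33, 4.60 and 5.14 FPKM in WT and 4.50, 3.88, 3.99 and 3.56 in null, again without overlap, with a difference of 0.34 ± 0.071 (adjusted p = 0.00889). Null of set B read 6.14 and 5.15 FPKM for Ezh1 at 0 and 1 h, near the WT values. Eed, the subunit that binds H3K27me3, was only 1.12-fold higher (adjusted p = 0.0375). Rbbp7 read 119, 119, 123 and 121 FPKM in WT and 128, 128, 128 and 118 in null, and Rbbp4 read 71.1, 66.9, 66.6 and 70.1 FPKM in WT and 73.9, 74.2, 71.8 and 61.0 in null. Neither differed beyond the spread, with intervals of -0.16 to 0.05 and -0.20 to 0.14 on the log2 scale. Of 22 proliferation genes 12 were higher and 3 lower in WT, a total near the 67.5% of all genes that passed. Among the higher ones were E2f1 (0.69 ± 0.067) and Mcm2 (0.83 ± 0.082) as log2 differences. Untreated cells went the other way for Mki67 and Rrm2, with 36.3 and 82.2 FPKM in WT against 55.6 and 164 in null. The part of the proliferation genes in the Ezh2 difference was not tested.

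Among the PRC2 accessory genes, which direct the complex to its sites, Mtf2 was higher in WT (0.35 ± 0.12, adjusted p = 0.0429) and the other 3 did not pass. Phf19 read 3.14, 2.91, 2.21 and 2.30 FPKM in WT and 3.48, 3.02, 1.74 and 1.36 in null, with higher values at 0 and 1 h than at 4 and 16 h in either line. Jarid2 read 1.54, 2.11, 2.52 and 2.95 FPKM in WT and 1.07, 2.26, 1.33 and 0.0989 in null. Jarid2 was listed far lower in null at 16 h than in the other 15 libraries, and its interval was wide, -0.14 to 1.47 on the log2 scale.

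The catalytic RING pair of PRC1 differed little. Rnf2, the main H2A ubiquitin ligase, read 21.2, 21.9, 19.7 and 22.6 FPKM in WT and 26.9, 26.2, 23.9 and 22.6 in null and was lower in WT (-0.21 ± 0.069, adjusted p = 0.0396). Ring1 read 7.03, 7.90, 7.77 and 6.57 FPKM in WT and 8.56, 8.64, 7.25 and 6.46 in null, with overlapping groups and an interval of -0.25 to 0.13. All 6 PCGF genes, which set the subtype of PRC1, passed, 4 higher and 2 lower in WT, where 67.5% of all genes passed. Bmi1, of canonical PRC1, read 21.6, 20.2, 18.0 and 20.5 FPKM in WT and 32.1, 31.1, 28.9 and 26.0 in null and was lower in WT without overlap (-0.53 ± 0.067, adjusted p = 0.00131). Pcgf2, its paralog in canonical PRC1, read 12.9, 16.0, 14.7 and 16.1 FPKM in WT and 10.9, 12.0, 10.8 and 10.1 in null and was higher (0.41 ± 0.076, adjusted p = 0.00545). The pair thus differed in opposite directions. Null of set B, which also lacks Arkadia, read 18.1 and 20.0 FPKM for Bmi1 and 15.5 and 17.4 for Pcgf2 at 0 and 1 h. Both genes were there nearer to WT than to null of set A. Pcgf5, of variant PRC1, read 21.3, 23.9, 18.5 and 22.4 FPKM in WT and 31.6, 40.0, 38.6 and 33.6 in null, with every WT value below every null value (-0.71 ± 0.092, adjusted p = 0.00141). Pcgf3, its close paralog, read 25.6, 25.4, 28.0 and 28.4 FPKM in WT and 19.6, 20.8, 25.6 and 26.5 in null and was 1.16-fold higher (adjusted p = 0.0288), with overlap once the null cells had been treated for 4 h. Pcgf1 and Pcgf6 were 1.26- and 1.17-fold higher. The share of Pcgf5 in the summed PCGF FPKM was 20.9% ± 1.67 in WT and 31.1% ± 2.27 in null (SD, n = 4 each).

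All 4 CBX genes passed, where 67.5% of all genes did, each with a log2 difference of 0.5 or more in size. The share of all genes with a difference of that size was not counted. Cbx6 read 24.7, 25.8, 18.5 and 16.8 FPKM in WT and 41.1, 38.9, 31.8 and 25.7 in null. It was lower in WT at each time, and the groups overlapped only where WT at 1 h met null at 16 h (-0.65 ± 0.052, adjusted p = 0.000298). Cbx8 read 13.9, 12.0, 12.5 and 12.8 FPKM in WT and 6.64, 7.06, 8.39 and 6.08 in null (0.78 ± 0.094, adjusted p = 0.0011). Cbx7, the CBX protein known for repressing the Ink4a/Arf locus, read 4.33, 3.51, 2.90 and 2.62 FPKM in WT and 2.08, 1.46, 1.24 and 1.16 in null (0.80 ± 0.07, adjusted p = 0.000394). Both were higher in WT without overlap. Cbx2, known for compacting chromatin, read 11.7, 9.90, 14.0 and 13.5 FPKM in WT and 8.49, 9.25, 7.57 and 5.84 in null, also without overlap (0.60 ± 0.17, adjusted p = 0.0245). Cbx2 and Cbx8 lie side by side in GRCm38, with no other coding gene between them. As shares of the 4 genes, Cbx6 made up 42.8% ± 6.23 in WT and 67.6% ± 2.47 in null, Cbx8 25.7% ± 1.84 and 14.2% ± 2.69, Cbx2 24.9% ± 5.28 and 15.3% ± 0.746, and Cbx7 6.64% ± 0.975 and 2.92% ± 0.482 (SD, n = 4 each).

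**Figure D2:**
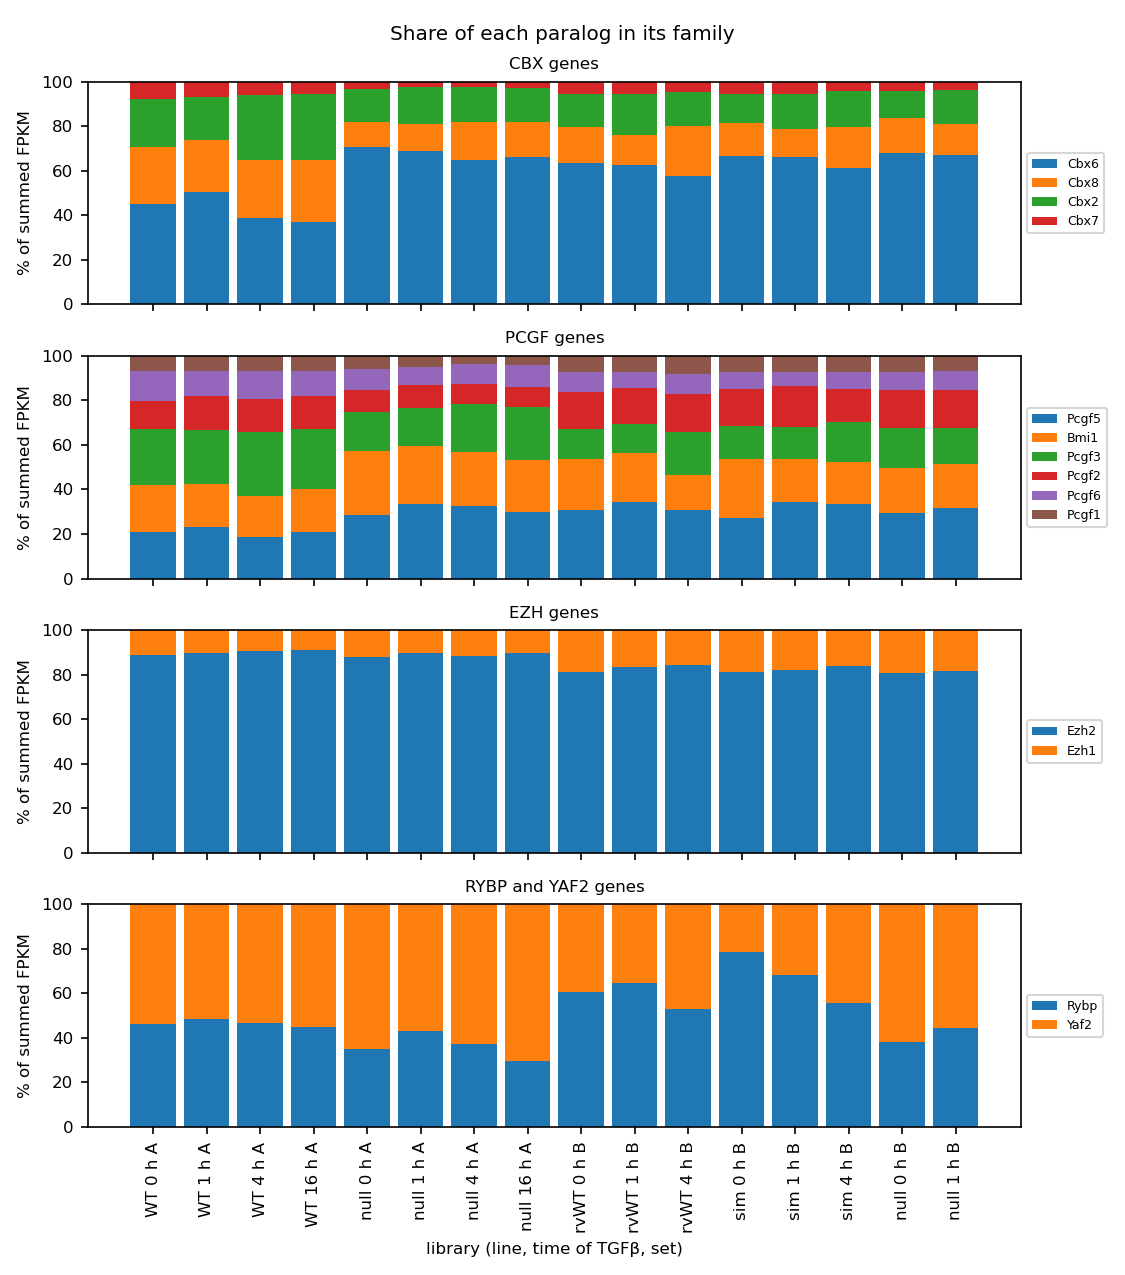
Stacked bars give each gene's share (%) of the summed FPKM of its family in each of the 16 libraries, for CBX, PCGF, EZH and Rybp/Yaf2. The Cbx6 share is 36.7% to 50.3% in WT and 57.6% to 70.5% in all other libraries, and Rybp is the larger share of its pair in rvWT and sim only.

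Phc1, a PHC subunit whose SAM domain supports clustering, had the largest difference of the set. It read 7.83, 9.93, 6.95 and 7.76 FPKM in WT and 2.63, 2.72, 3.83 and 3.42 in null (1.14 ± 0.15, adjusted p = 0.00142). The abundant Phc2 read 38.3, 41.5, 39.6 and 36.9 FPKM in WT and 43.3, 48.7, 43.3 and 46.1 in null and was slightly lower in WT (-0.21 ± 0.048, adjusted p = 0.0122). Phc1 made up 16.5% ± 1.79 of the 3 PHC genes in WT and 6.16% ± 1.14 in null (SD, n = 4 each). Phc3 did not pass (interval -0.80 to -0.03). Scmh1, a homolog of the fly Sex comb on midleg protein, read 6.39, 6.94, 6.42 and 7.31 FPKM in WT and 12.4, 12.6, 12.1 and 10.6 in null, with all WT values below all null values (-0.73 ± 0.081, adjusted p = 0.000831).

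Of the partners of variant PRC1, Kdm2b, the protein that brings PRC1 to unmethylated CpG islands, read 6.79, 8.53, 9.89 and 9.74 FPKM in WT and 3.91, 4.57, 4.88 and 5.40 in null (0.77 ± 0.062, adjusted p = 0.000316). Every WT value was above every null value. Rybp, which stimulates H2A ubiquitination, read 14.3, 20.6, 16.7 and 16.2 FPKM in WT and 8.37, 14.4, 12.5 and 10.5 in null (0.54 ± 0.067, adjusted p = 0.00122), higher in WT at each of the 4 times but with overlap between WT at 0 h and null at 1 h. Yaf2, its paralog, read 16.7, 22.1, 19.2 and 20.0 FPKM in WT and 15.7, 18.9, 21.0 and 24.9 in null, with an interval of -0.27 to 0.21. In PR-DUB, the scaffold Asxl1 read 22.8, 19.9, 21.0 and 23.3 FPKM in WT and 18.1, 16.9, 15.0 and 14.9 in null and was higher (0.40 ± 0.076, adjusted p = 0.00585), whereas the deubiquitinase Bap1 was 0.714 of the null level (-0.49 ± 0.059, adjusted p = 0.00113). The call held under every alternative that tested the gene for 14 genes. These were Cbx7, Kdm2b, Phc1, Cbx8, Ezh2, Rybp, Pcgf2, Asxl1 and Ezh1 above and Scmh1, Pcgf5, Cbx6, Bmi1 and Bap1 below. Cbx7 and Ezh1 were too low to be tested with the 5 FPKM filter. The call was lost on leaving out at least 1 library for Cbx2, Eed, Mtf2, Pcgf1, Pcgf3, Pcgf6, Phc2 and Rnf2.

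**Figure D3:**
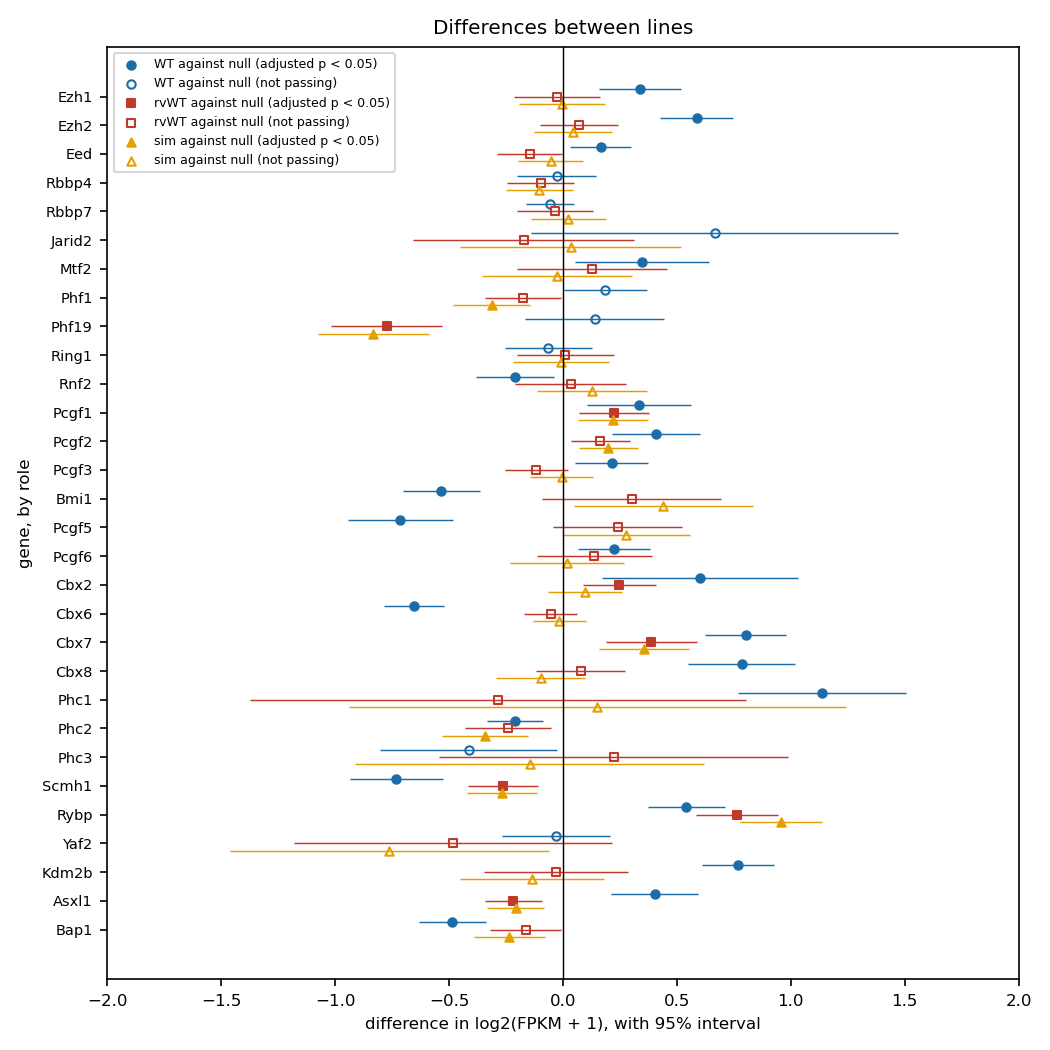
Points give the difference between lines in log2(FPKM + 1) with its 95% interval for each of the 30 subunits, for WT against null (circles), rvWT against null (squares) and sim against null (triangles), filled where the adjusted p is below 0.05. Rybp and Cbx7 are filled to the right of 0 in all 3, Phf19 is filled to the left in rvWT and sim only, and Ezh2, Kdm2b, Phc1, Cbx8 and Cbx6 are filled in WT only.

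Null cells given Arkadia by retrovirus differed from null cells most clearly in Rybp and Phf19. In rvWT, Rybp was 1.70-fold higher than in null (95% interval 1.50 to 1.92) and Phf19 was 0.585 of the null level (0.494 to 0.693). In sim, the same genes stood at 1.94 (1.71 to 2.20) and 0.562 (0.475 to 0.665). Of 30 subunits, 4 were higher and 3 lower in rvWT, where 38.6% of 10958 genes passed (16.0% higher, 22.6% lower). In sim, 4 were higher and 6 lower, where 34.7% passed (13.9% higher, 20.8% lower). The rvWT count lay below the share of all genes and the sim count near it. With median-ratio or quantile scaling the splits were 5 and 2 in rvWT and 4 and 4 in sim. The comparisons share their null libraries, so their likeness is not independent. The retroviral lines also differed from null in fibroblast markers, 7835 to 9215 FPKM in sum against 6608 to 6788, whose part was not tested.

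Rybp read 12.5, 21.8 and 12.9 FPKM in rvWT, 13.7, 23.5 and 16.6 in sim and 6.86 and 11.8 in null, here and below in the order of 0, 1 and 4 h, with null at 0 and 1 h only. Every rvWT and sim value lay above both null values, and the differences were 0.76 ± 0.071 (adjusted p = 0.00113) and 0.96 ± 0.071 (adjusted p = 0.000706). Yaf2 read 8.07, 11.8 and 11.5 FPKM in rvWT, 3.77, 11.0 and 13.2 in sim and 11.2 and 14.9 in null, the lowest being untreated sim cells. Its differences of -0.48 ± 0.28 and -0.76 ± 0.28 did not pass (adjusted p = 0.224 and 0.0867). Rybp made up 59.5% ± 6.10 of the pair in rvWT and 67.4% ± 11.4 in sim (SD, n = 3 each), against 41.2% ± 4.40 in null of set B (SD, n = 2) and 46.4% ± 1.48 in WT (SD, n = 4). These means cover unlike times. At 0 and 1 h the Rybp shares were 60.7% and 64.8% in rvWT, 78.5% and 68.1% in sim and 38.1% and 44.3% in null of set B. Kdm2b read 4.10, 3.42 and 5.05 FPKM in rvWT, 3.02, 3.88 and 4.58 in sim and 3.52 and 4.21 in null, with overlap among all 3 lines.

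Phf19 read 1.66, 1.39 and 1.21 FPKM in rvWT, 1.65, 1.34 and 1.01 in sim and 3.31 and 3.43 in null. No value of the retroviral lines reached the null values, and the differences were -0.77 ± 0.096 (adjusted p = 0.00294) and -0.83 ± 0.096 (adjusted p = 0.00266). Among the Tudor-domain PRC2 partners Phf19 made up 25.7% ± 0.368 in null of set B (SD, n = 2), 13.4% ± 2.16 in rvWT and 14.1% ± 3.88 in sim (SD, n = 3 each). The rvWT and sim means include 4 h, which null of set B lacks. At 0 and 1 h the Phf19 shares were 15.8% and 12.7% in rvWT, 18.4% and 13.0% in sim and 26.0% and 25.4% in null. Phf1 was lower in sim (-0.31 ± 0.067, adjusted p = 0.019), and its rvWT difference was -0.18 ± 0.067 (adjusted p = 0.0933). Against null, rvWT had 2 of the 22 proliferation genes higher and 6 lower, and sim had 1 higher and 6 lower. These totals were near the 38.6% and 34.7% of all genes that passed in rvWT and sim. E2f1 was among the lower ones, at -0.24 ± 0.062 and -0.31 ± 0.062 as log2 differences. Rrm2 and Ccne1 differed more, at 67.7 and 9.51 FPKM in untreated rvWT, 71.9 and 9.43 in untreated sim and 122 and 17.5 in untreated null. In set A, E2f1 was higher in WT than in null and Phf19 did not pass. The part of E2f1 in the level of Phf19, whose promoter holds the E2F-type word printed above, was not tested.

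The PRC2 core showed no call in either line. Ezh2 read 27.1, 25.3 and 20.4 FPKM in rvWT, 25.6, 23.4 and 22.2 in sim and 25.6 and 23.0 in null, with overlapping groups and intervals of -0.10 to 0.24 in rvWT and -0.13 to 0.22 in sim. Those intervals end below the WT–null difference of set A, 0.59, though the comparisons come from separate fits and their difference was not tested. Ezh1 read 6.23, 5.11 and 3.77 FPKM in rvWT, 5.89, 5.06 and 4.31 in sim and 6.14 and 5.15 in null, with lower values at 4 h than at 0 h in both retroviral lines. Rbbp7 read 121, 115 and 98.9 FPKM in rvWT, 118, 116 and 113 in sim and 117 and 119 in null. Rbbp4 read 64.1, 62.6 and 57.4 FPKM in rvWT, 59.7, 63.3 and 60.2 in sim and 68.2 and 65.8 in null. Neither passed.

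Of the RING and PCGF genes, Pcgf1 was higher in rvWT (0.22 ± 0.061, adjusted p = 0.0376) and in sim (0.22 ± 0.061, adjusted p = 0.0426), and Pcgf2 in sim (0.20 ± 0.051, adjusted p = 0.034). Pcgf2 read 17.7, 19.0 and 15.6 FPKM in rvWT, 18.0, 20.3 and 15.4 in sim and 15.5 and 17.4 in null. Rnf2 read 22.5, 21.0 and 15.0 FPKM in rvWT, 24.3, 20.5 and 17.6 in sim and 19.9 and 21.7 in null, and Ring1 read 10.5, 10.7 and 10.6 FPKM in rvWT, 11.5, 10.9 and 9.17 in sim and 11.4 and 10.4 in null. The RING genes overlapped between lines. Bmi1 read 24.3, 25.3 and 14.5 FPKM in rvWT, 28.6, 21.8 and 19.5 in sim and 18.1 and 20.0 in null, Pcgf5 read 32.8, 39.9 and 27.7 FPKM in rvWT, 29.7, 38.0 and 34.7 in sim and 26.6 and 31.5 in null, and Pcgf3 read 14.0, 15.3 and 17.2 FPKM in rvWT, 16.1, 15.9 and 18.5 in sim and 15.9 and 16.1 in null. Bmi1 and Pcgf5, lower in WT than in null, did not pass here, with intervals of -0.09 to 0.69 and -0.04 to 0.52 in rvWT that lie mostly above 0.

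Cbx7 was the CBX gene higher in both, reading 3.74, 3.59 and 2.06 FPKM in rvWT, 3.69, 3.61 and 1.89 in sim and 2.84 and 2.37 in null (0.39 ± 0.079, adjusted p = 0.0149, and 0.36 ± 0.079, adjusted p = 0.0214). The 4 h values of rvWT and sim lay below the null values, which come from 0 and 1 h. Cbx2 read 10.3, 12.4 and 7.08 FPKM in rvWT, 8.72, 10.6 and 6.85 in sim and 8.26 and 10.1 in null and passed in rvWT (0.25 ± 0.064, adjusted p = 0.0314). Cbx6 read 43.6, 41.4 and 26.4 FPKM in rvWT, 44.7, 43.7 and 26.4 in sim and 45.6 and 43.3 in null, with nearly equal values at each time and intervals of -0.17 to 0.06 and -0.13 to 0.10. Cbx8 read 11.2, 8.80 and 10.3 FPKM in rvWT, 10.0, 8.38 and 8.09 in sim and 10.3 and 9.00 in null, with intervals of -0.12 to 0.27 and -0.29 to 0.10.

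Phc1 read 1.28, 4.27 and 5.62 FPKM in rvWT, 5.16, 4.80 and 4.52 in sim and 4.37 and 3.24 in null, its lowest value of all libraries being untreated rvWT, and its interval was too wide to place it (-1.38 to 0.80 in rvWT). Phc2 read 39.7, 47.3 and 58.8 FPKM in rvWT, 38.3, 47.5 and 48.8 in sim and 49.3 and 56.6 in null and was lower in sim (-0.34 ± 0.075, adjusted p = 0.0206). Scmh1 read 11.8, 11.6 and 9.88 FPKM in rvWT, 10.9, 12.2 and 10.1 in sim and 13.9 and 14.5 in null. It was lower than null in both lines (-0.26 ± 0.061 and -0.27 ± 0.061, adjusted p = 0.0226 and 0.0242), as it was in WT. Asxl1 read 13.1, 11.8 and 11.9 FPKM in rvWT, 13.2, 12.1 and 11.7 in sim and 15.2 and 14.2 in null and was lower in both (-0.22 ± 0.049 and -0.21 ± 0.049, adjusted p = 0.0212 and 0.0273), opposite to WT. Bap1 was lower in sim (-0.24 ± 0.061, adjusted p = 0.0358).

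Of the 22 genes called in WT and the 7 called in rvWT, 6 were shared (27.3% and 85.7%). With 22 of 30 subunits called in WT, most genes of any subunit list would be shared with it. Sharing over all genes was not counted, so these percentages do not measure likeness. Cbx2, Cbx7, Pcgf1, Rybp and Scmh1 had the same sign and Asxl1 the opposite. With the 10 called in sim, 8 were shared (36.4% and 80% of the lists), Bap1, Cbx7, Pcgf1, Pcgf2, Phc2, Rybp and Scmh1 with the same sign and Asxl1 with the opposite. The set A and set B comparisons use different null libraries. Phf19 kept its call in rvWT and sim under every alternative that tested it, being too low for the 5 FPKM filter. Rybp lost its call only without the time block (adjusted p = 0.193 and 0.121). The remaining 5 calls in rvWT and 8 in sim were each lost on leaving out the set B null library at 0 h or that at 1 h, which left 2 subunits called in either line. Omitting the 0 h library of rvWT left 3 called in rvWT, and omitting its 1 h library left 2. In sim the number was 2 when the untreated sim library was omitted, 6 when the 1 h sim library was, 6 when untreated rvWT was and 4 when rvWT at 1 h was.

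Wild-type and SIM-mutant Arkadia gave no subunit that passed when compared with each other, beside 0.493% of genes (54 of 10958). Without adjustment 3 subunits had p below 0.05, and limma without the trend also called none. Rybp came closest, lower in rvWT by -0.19 on the log2 scale (interval -0.34 to -0.04, adjusted p = 0.233), then Cbx2 at 0.15 ± 0.054 and Cbx8 at 0.18 ± 0.066 (adjusted p = 0.272 and 0.287). For Ezh2 the interval was -0.12 to 0.17, for Cbx6 -0.14 to 0.06, for Phf19 -0.15 to 0.27 and for Cbx7 -0.14 to 0.20. The widest, for Phc1, was -1.36 to 0.49, so that for this gene a sizeable difference could not have been seen. Rnf111 itself was higher in rvWT than in sim (0.90 ± 0.055, adjusted p = 0.0167), so the lines differ in dose as well as in the motif.

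After 1 h of TGFβ, Rybp was the subunit that responded. It rose 1.61-fold on the FPKM + 1 scale (95% interval 1.44 to 1.79), 0.68 ± 0.07 in log2 (adjusted p = 0.000262, limma-trend over 16 libraries with the 5 time series as a block). The rise was seen in 5 of 5 series, at 1.44 to 1.74-fold in FPKM, whether Arkadia was present or not, and the lowest of these was WT. It was 1 of 30 subunits, against 5.96% of 11045 genes (3.95% higher, 2.01% lower). Yaf2 and Mtf2 were also higher in 5 of 5 series without passing (0.57 ± 0.17 and 0.39 ± 0.11, adjusted p = 0.0814 and 0.0654), and so was Pcgf5 (0.27 ± 0.078, adjusted p = 0.0764). Without adjustment 8 subunits had p below 0.05. In set A alone, with 8 libraries, the Rybp difference did not pass (adjusted p = 0.190) and 0.109% of genes did, whereas in set B alone it passed, as did 4.21% of genes. Leaving out a library left Rybp called each time, among 1 to 4 subunits, the others being Mtf2, Pcgf5, Ezh1, Phc2 or Yaf2. There were 2 without WT 4 h, WT 16 h, null 16 h or sim 0 h, 3 without null 4 h of set A or sim 4 h, and 4 without rvWT 4 h.

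At 4 h the CBX genes Cbx6 and Cbx7 fell together, to 0.681 and 0.677 of the untreated level on the FPKM + 1 scale, in 4 of 4 series. Ezh1, Phf19, Bmi1, Rnf2, Ezh2 and Asxl1 fell less. The 3 partners of variant PRC1 in the gene set went up, with Yaf2 1.55-fold, Kdm2b 1.29-fold and Rybp 1.20-fold, as did Pcgf3 (1.18-fold) and Phc2 (1.18-fold). Bcor and Dcaf7, variant PRC1 genes of the pathway list, were lower at 4 h than at 0 h in 4 of 4 series. In all, 5 subunits were higher and 8 lower, where 39.0% of 11045 genes passed (11.9% higher, 27.1% lower), so the totals follow those of all genes. With median-ratio or quantile scaling 5 were higher and 6 lower.

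Cbx6 changed by -0.55 ± 0.068 in log2 (adjusted p = 0.000344), and within the series by -0.74 to -0.36, most in sim and rvWT. Its values, given above, moved little at 1 h in any series. Cbx7 changed by -0.56 ± 0.084 (adjusted p = 0.000955), with a narrower range of -0.70 to -0.45 within the series. Phf19 changed by -0.42 ± 0.099 (adjusted p = 0.009), most in null of set A, where it fell from 3.48 to 1.74 FPKM. Ezh1 changed by -0.37 ± 0.068 (adjusted p = 0.00284), and it was lower in 5 of 5 series already at 1 h, when it did not pass (adjusted p = 0.103). Ezh2 changed by -0.21 ± 0.06 (adjusted p = 0.0186), most in rvWT. Of the 22 proliferation genes 6 were lower and none higher at this time, a share near the 27.1% of all genes called lower, with a median of -0.19 on the log2 scale beside -0.08 over all genes. Among the 6 were Ccna2 (-0.47 ± 0.1) and Top2a (-0.41 ± 0.099), and the part of these genes in the Ezh2 value was not tested.

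Rnf2 and Bmi1, partners in canonical PRC1, changed by -0.30 ± 0.082 and -0.38 ± 0.11 (adjusted p = 0.0178 and 0.0218). Within the series Rnf2 changed by -0.55 to -0.10 and Bmi1 by -0.71 to -0.15, both most in rvWT and next in sim. Asxl1 changed by -0.16 ± 0.055 (adjusted p = 0.0413). Among the genes that rose, Pcgf3 was up in 4 of 4 series by 1.09 to 1.31-fold in FPKM (adjusted p = 0.00425) and Kdm2b by 1.23 to 1.52-fold (adjusted p = 0.00498). Yaf2 rose 1.15 to 3.51-fold (adjusted p = 0.0221), the highest being sim, whose untreated value was low. Rybp was back near its untreated level in rvWT and above it in the others (1.03 to 1.49-fold, adjusted p = 0.0225). Phc2 (adjusted p = 0.041) rose in rvWT and sim and was level in set A, at 0.999- to 1.48-fold.

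Most of these calls leaned on set B. In set A alone (8 libraries) no subunit passed at 4 h and 0.146% of genes did, and in set B alone 12 subunits passed and 38.9% of genes did. Phf19, Kdm2b, Asxl1 and Rybp passed in neither set alone, and Phc3, Cbx2 and Pcgf2 passed in set B alone but not in the pooled fit. The direction in WT and null of set A was the same as in the pooled value for all 13 except Phc2 in null, whose change was near 0. The count fell to 8 without rvWT 0 h, rvWT 4 h or sim 0 h, and to 7 without sim 4 h. Each of the 13 lost its call in set A alone, and Cbx6, Cbx7, Ezh1 and Pcgf3 lost it in no other alternative. Asxl1 lost it in 16 of 26 alternatives, Phc2 in 10 and Rybp in 7, and Yaf2 also lost it without sim 4 h.

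**Figure D4:**
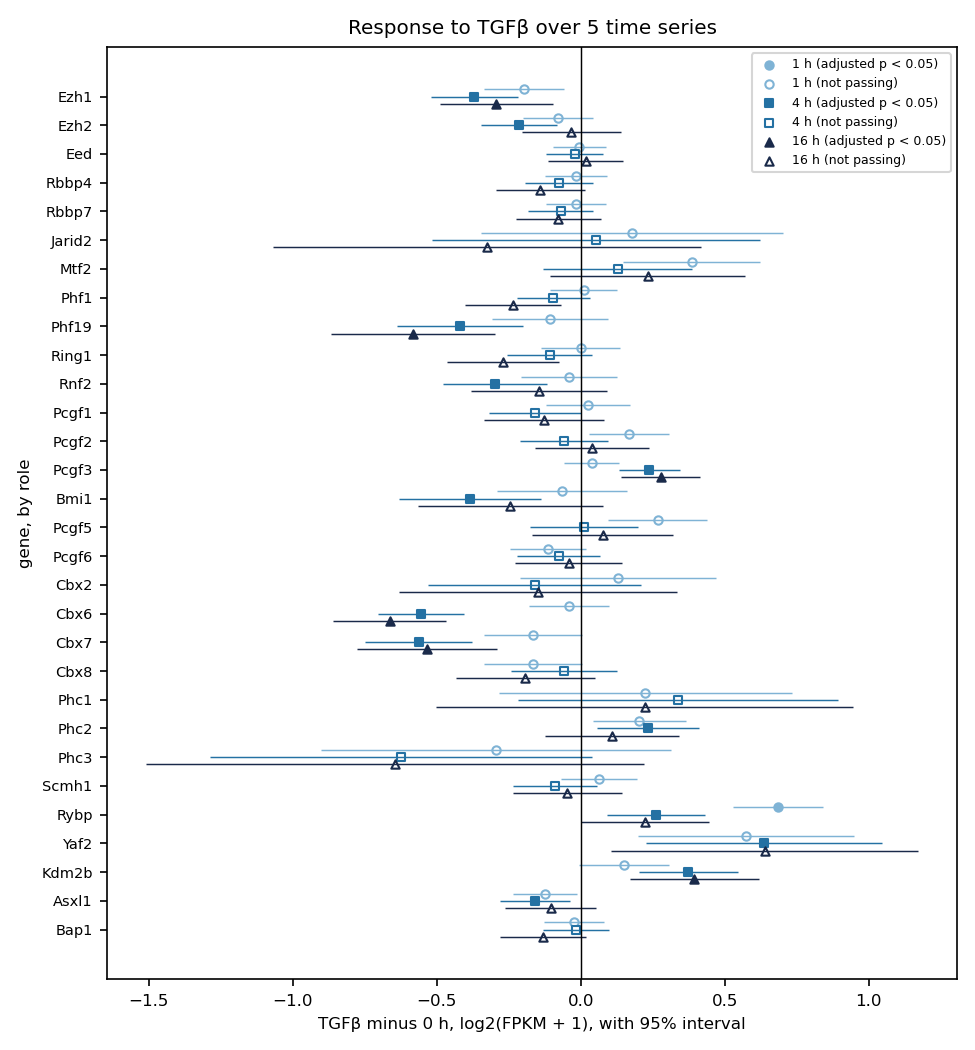
Points give the TGFβ response of each of the 30 subunits, treated minus 0 h in log2(FPKM + 1) with its 95% interval, at 1 h (circles), 4 h (squares) and 16 h (triangles), filled where the adjusted p is below 0.05. Rybp is the only filled circle, and Cbx6, Cbx7 and Phf19 are filled to the left at 4 and 16 h.

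At 16 h, measured in WT and null of set A only, the same CBX genes were still low. Cbx6 stood at 0.632 of the untreated level (-0.66 ± 0.088, adjusted p = 0.00081) and Cbx7 at 0.691 (-0.53 ± 0.11, adjusted p = 0.00841). Phf19 (-0.58 ± 0.13, adjusted p = 0.0118) and Ezh1 (-0.29 ± 0.089, adjusted p = 0.0421) were lower too, and Pcgf3 (0.28 ± 0.062, adjusted p = 0.0125) and Kdm2b (0.39 ± 0.10, adjusted p = 0.0222) were higher. The total was 2 higher and 4 lower of 30, where 19.4% of genes passed (6.84% higher, 12.5% lower). Phf19 changed by -0.93 in null and by -0.33 in WT. Ezh2 had an interval of -0.20 to 0.14 at this time. Of 22 proliferation genes 9 were lower and none higher, where 12.5% of all genes were lower. The 2 lines were unlike in this, as Mcm7 went from 75.0 to 42.2 FPKM in null and from 92.2 to 87.7 in WT. The part of the proliferation genes in the Ezh2 value was not tested. Without the null 16 h library Cbx6 alone passed. The Ezh1 call was lost in 16 of 23 alternatives, median-ratio and quantile scaling among them (adjusted p up to 0.36). Kdm2b lost its call without the 0 h or the 16 h library of either line.

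**Figure D5:**
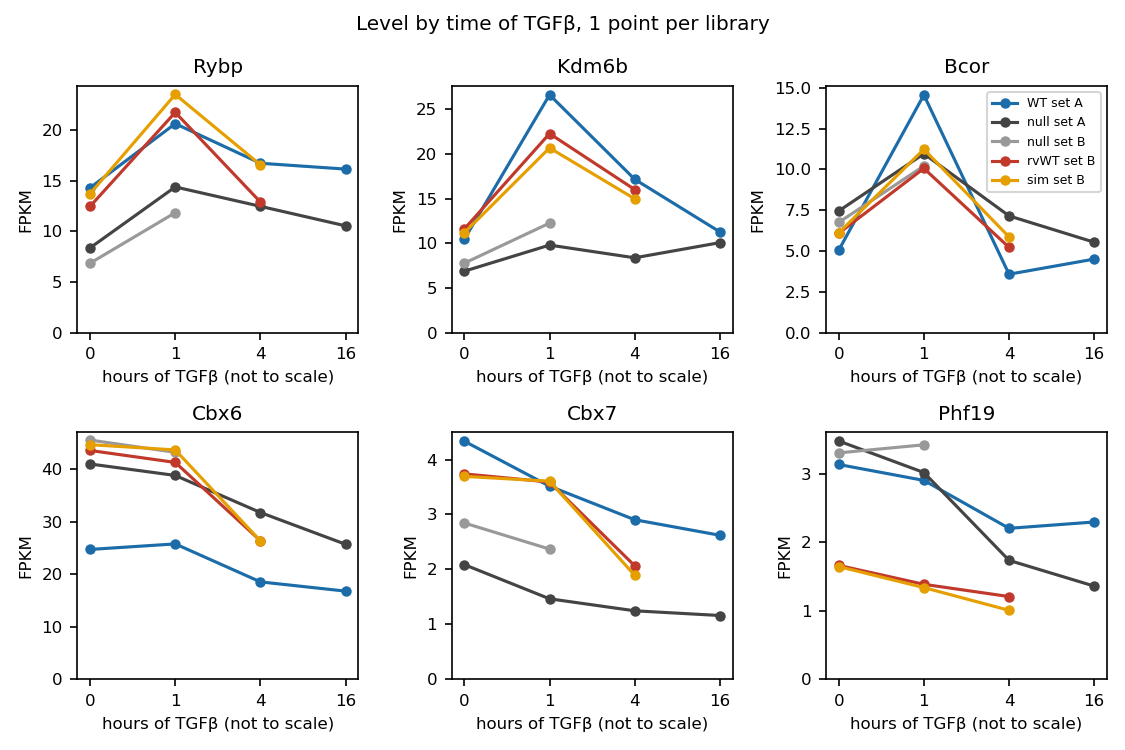
Panels show FPKM against hours of TGFβ (steps not to scale) for Rybp, Kdm6b, Bcor, Cbx6, Cbx7 and Phf19, with 1 point per library and 1 line per time series. Rybp is highest at 1 h in all 5 series, of which null of set B has 0 and 1 h only. Cbx6 lies between 16.8 and 26.4 FPKM in WT at all times and in rvWT and sim at 4 h, and the null cells of set A and set B differ in level for Cbx7.

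No difference in the response to TGFβ between WT and null passed for any subunit. In the interaction of treatment with line, WT minus null, 0 of 30 subunits passed, beside 0.0181% of genes (2 of 11045), none had an unadjusted p below 0.05, and limma without trend also called none. The difference in response was -0.18 for Rybp (interval -0.60 to 0.23), 0.11 for Cbx6 (-0.24 to 0.46), 0.19 for Phf19 (-0.37 to 0.75) and 0.06 for Ezh2 (-0.27 to 0.39), all on the log2 scale. Intervals of this width do not show that the responses were alike. Against null, the largest values were Phc1 in rvWT (1.35 ± 0.34, adjusted p = 0.997) and Yaf2 in sim (1.06 ± 0.19, adjusted p = 0.564). Each rests on a low untreated library, 1.28 FPKM of Phc1 in rvWT and 3.77 FPKM of Yaf2 in sim.

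Other genes of the pathway were read from a list of 34, of which 32 were in the table and 30 or 31 were tested. Cdkn2a and Cdkn2b, textbook Polycomb targets, were not analysed here. In WT against null 10 of 30 were higher and 6 lower, a smaller share than the 67.5% of all genes called, led by Kdm6a (-0.80 ± 0.077), an H3K27 demethylase, and Dcaf7 (0.56 ± 0.055), L3mbtl2 (0.61 ± 0.064) and Csnk2a1 (0.44 ± 0.047), subunits of variant PRC1. In rvWT 5 of 31 were higher and 2 lower, where 38.6% of all genes were called, with Kdm6b at 0.67 ± 0.079, Foxk2, a PR-DUB partner, at 0.30 ± 0.045, Hdac1 at -0.27 ± 0.053 and Hdac2 at 0.23 ± 0.045. In sim 5 of 31 were higher and 3 lower, where 34.7% were called, with Kdm6b at 0.59 ± 0.079, Hdac2 at 0.30 ± 0.045, Aebp2, a PRC2 cofactor, at -0.31 ± 0.068 and Foxk2 at 0.18 ± 0.045. Between rvWT and sim none passed, and 3 had an unadjusted p below 0.05.

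At 1 h of TGFβ 2 of 30 of these pathway genes were called, both higher, a share near the 5.96% of all genes, and Rybp was the sole subunit. Kdm6b, the inducible H3K27 demethylase, read 10.5, 26.6, 17.2 and 11.3 FPKM in WT and 6.88, 9.80, 8.38 and 10.1 in null of set A, and 11.6, 22.3 and 16.0 FPKM in rvWT, 11.2, 20.7 and 15.0 in sim and 7.78 and 12.3 in null of set B. It was higher at 1 h than at 0 h in every series (0.81 ± 0.13, adjusted p = 0.0046). Bcor, a corepressor that joins Pcgf1 and Rybp in a variant PRC1, read 5.05, 14.6, 3.58 and 4.50 FPKM in WT and 7.45, 11.0, 7.15 and 5.54 in null of set A, and 6.08, 10.1 and 5.22 FPKM in rvWT, 6.11, 11.2 and 5.86 in sim and 6.75 and 10.2 in null of set B. Bcor was highest at 1 h in every series, of which null of set B has 0 and 1 h only (0.76 ± 0.14, adjusted p = 0.00856). It was below its untreated level at 4 h in each of the 4 series measured. Kdm6b was highest at 16 h in null of set A. At 4 h 3 of 30 were higher and 6 lower, where 39.0% of all genes were called, with Kdm6a at -0.48 ± 0.091, Foxk2 at 0.21 ± 0.052, Hdac2 at -0.12 ± 0.032 and Dcaf7 at -0.15 ± 0.039. At 16 h, where 19.4% were called, 1 of 30 was higher, Foxk2 (0.24 ± 0.068), and 1 was lower, Mbd6 (-0.22 ± 0.061).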

How the data were processed

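RNA of 16 libraries of mouse embryo fibroblasts (wild-type, Arkadia-null and null with 1 of 2 Arkadia retroviruses) was sequenced after poly(A) selection with a stranded kit, per the labels' protocols. The authors deposited FPKM values for 12100 genes. Build mm9 and the tools STAR 2.3.0e, Cufflinks 2.2.1, CASAVA 1.8.2 and SAMtools come from the submitters' processing notes, which give them no order. The annotation, the handling of shared reads and whether counting used strand are not stated there. No read counts were used, so depth is unknown and no counting interval is given. All value columns of the table matched a library (0 unmatched).

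Values were analysed as log2(FPKM + 1) for genes that averaged 1 FPKM or more across the fitted libraries, a scale that understates changes of low genes. Tests used limma-trend (limma 3.58.1 in R 4.3.3) with Benjamini-Hochberg adjustment over all genes tested and a threshold of 0.05. Lines were compared within a set with time as a block, and TGFβ responses over 16 libraries with the 5 time series as a block. Intervals cover 95%. The code was tested on simulated data. Full values by library are given for subunits that passed a line comparison by at least 0.5 (log2) or a TGFβ test and for paralog pairs, ranges for the rest, and up to 4 genes with the smallest p from each other list. The subunits and the lists (other Polycomb pathway genes, proliferation genes, cell type markers) were chosen with earlier results of these data known. One gene of the pathway list is not reported here and is not in its counts. Alternatives were pseudocounts of 0.1 and 5, quantile and median-ratio scaling, a filter at 5 FPKM or none, an untrended limma fit, no time block, set A or B by itself, and omission of each library. An alternative added after seeing the data dropped 334 genes whose value was below 0.1 FPKM somewhere and 5 or above elsewhere.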

Additional observations from a re-analysis of the deposited data

How the results depend on the processing

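No subunit changed direction under any alternative among the 59 differences that passed, and 17 of them kept their call in every alternative that tested the gene. Leaving out each library gave 16 to 18 subunits for WT against null, 2 to 9 for rvWT against null, 2 to 9 for sim against null, 0 to 0 for rvWT against sim, 1 to 4 at 1 h of TGFβ, 7 to 13 at 4 h, 1 to 9 at 16 h and 0 to 0 for the difference in response. Where this left an arm with 1 library, its spread was assumed to be that of the other groups. Without the time block, which leaves the TGFβ response in the residual spread, 1 subunit passed in rvWT and 2 in sim. Median-ratio and quantile scaling each gave 2 at 1 h. Set A alone gave 0 at 1 h and 0 at 4 h, from 8 libraries in place of 16. A minimum of 5 FPKM gave 3 at 16 h, with 23 subunits tested. The other alternatives stayed within 1.5 times the counts reported, and leaving out genes that drop out gave 23, 8, 10, 0, 1, 13 and 6 subunits in the order of the comparisons. No paired analysis by replicate number was possible because the libraries carry no replicate numbers, and the time block takes that place. Fold changes of low genes such as Cbx7 and Phf19 depend on the pseudocount, and the unknown depth sets no limit that could be given in counts.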
